A study of Mus musculus with 10 samples.

Results

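The genes described here encode carriers of the SLC25 family, the solute carriers of the mitochondrial inner membrane. They were taken as every gene of the deposited table whose symbol is Slc25a followed by a number, apart from 1 such row left out by the selection, which used symbols and no measured value. That gave 43 genes of the 20692 in the table, and 35 of them passed the filter on low counts, leaving 8 untested. The hearts came from FVB/NJ wild type mice, an inbred laboratory strain, given as female and 9 weeks old: 5 mice 1 week after transverse aortic constriction (TAC), which narrows the aortic arch and loads the left ventricle with pressure, and 5 sham-operated mice. The labels carry no genetic change or drug for either group. Polyadenylated RNA of the ventricular apex, in tissue otherwise labelled as whole heart, was sequenced, and the comparison asks which cardiac transcripts differ after 1 week of pressure overload.

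SLC25 proteins span the membrane with repeated pairs of helices and exchange or cotransport nucleotides, phosphate, carboxylates, amino acids, cofactors and iron between the cytosol and the mitochondrial matrix. In the heart, whose contraction rests on mitochondrial ATP, the adenine nucleotide carrier passes ADP in and ATP out, the phosphate carrier supplies phosphate to the ATP synthase, and the oxoglutarate and aspartate-glutamate carriers move reducing equivalents inward as the malate-aspartate shuttle. Other members bring in coenzyme A, glutathione or iron.

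Libraries held between 7410967 and 10126574 counts. Levels are CPM, counts scaled to library size with TMM factors, group values are mean ± SD over 5 libraries, and log2 fold changes are TAC over sham ± SE, with Benjamini-Hochberg adjusted p-values of edgeR's quasi-likelihood test over all 12001 tested genes, called at 0.05. The library labelled TAC replicate 1 went against its female label, with 14 counts of Xist against 1042 to 1561 in the other 9 libraries and 155 counts of the Y-linked gene Ddx3y against 0. Cardiomyocyte markers fell in 6 of 7 genes (median log2 fold change -0.43; summed level 54720 to 78010 CPM in TAC and 82790 to 97500 CPM in sham). Fibroblast markers rose in 6 of 7 (median 0.96; 1893 to 5568 CPM in TAC and 684 to 925 CPM in sham) and macrophage markers in 6 of 7 (median 0.77; 263 to 451 CPM in TAC and 170 to 191 CPM in sham). Endothelial markers rose in 2 of 6 (median 0.13; 1073 to 1309 CPM in TAC and 948 to 1158 CPM in sham) and smooth muscle and pericyte markers in 2 of 5 (median 0.22; 906 to 939 CPM in TAC and 762 to 867 CPM in sham), while none of the 3 tested erythroid genes passed. Of 4 adipocyte genes only Cidec could be tested and it did not pass, and Ucp1 had 0 counts in all TAC libraries (summed level 0.347 to 7.71 CPM in TAC and 1.34 to 5.04 CPM in sham). TAC replicate 1 stood apart in several cardiomyocyte, fibroblast and macrophage markers, with 20520 CPM of Myh6, 2998 CPM of Col1a1 and 122.5 CPM of Csf1r. The other TAC libraries gave 30130 to 38310, 825 to 1041 and 62.2 to 75.3 CPM. Tnnt2, Actc1 and Ryr2 were lowest in other TAC libraries, and Pdgfra, Tcf21 and Cd163 were highest in others. Called falls were 17% and called rises 18.8% of all tested genes. In these bulk samples fewer cells of a type and less RNA per cell cannot be told apart, and the part of cell composition in the results below was not tested.

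The stretches upstream of the start of 3 carriers are shown because these genes fell together and include the most abundant member, the phosphate carrier and the member with the largest fall. Each is 250 bases from RefSeq (GRCm38.p6), 5′ to 3′ on the gene's strand, the minus strand in all 3, at chr8:46211063-46211312 for Slc25a4, chr10:91123968-91124217 for Slc25a3 and chr4:141623835-141624084 for Slc25a34. Capitals mark matches to 4 motifs searched on both strands.
Slc25a4: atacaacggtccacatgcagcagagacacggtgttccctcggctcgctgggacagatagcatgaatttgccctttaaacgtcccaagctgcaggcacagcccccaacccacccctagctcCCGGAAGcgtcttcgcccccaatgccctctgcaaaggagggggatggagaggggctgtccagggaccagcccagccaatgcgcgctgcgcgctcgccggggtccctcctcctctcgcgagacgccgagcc
Slc25a3: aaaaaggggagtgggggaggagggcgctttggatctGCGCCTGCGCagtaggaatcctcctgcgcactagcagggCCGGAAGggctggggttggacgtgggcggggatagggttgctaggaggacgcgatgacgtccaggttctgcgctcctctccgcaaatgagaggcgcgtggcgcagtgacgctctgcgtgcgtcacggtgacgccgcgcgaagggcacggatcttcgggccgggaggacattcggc
Slc25a34: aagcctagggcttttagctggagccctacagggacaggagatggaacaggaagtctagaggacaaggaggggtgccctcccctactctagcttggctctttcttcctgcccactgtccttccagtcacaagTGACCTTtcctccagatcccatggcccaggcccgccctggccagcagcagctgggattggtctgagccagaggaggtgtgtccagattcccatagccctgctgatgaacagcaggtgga
The motifs were AAGGTCA, the half-site of oestrogen-related receptors, and a 10-base site of nuclear respiratory factor 1. The others were CCGGAAG, bound by ETS factors, and the E-box CACGTG. No motif lies within another. The capitals are CCGGAAG in Slc25a4, the nuclear respiratory factor 1 site on the reverse strand followed by CCGGAAG in Slc25a3, and AAGGTCA on the reverse strand in Slc25a34. RefSeq windows were found for 33 of the 43 genes. AAGGTCA was present upstream of 1 of these 33 genes and in 4.08% of all 32851 windows of this length, the nuclear respiratory factor 1 site upstream of 2 and in 3.74%, CCGGAAG upstream of 4 and in 6.91%, and CACGTG upstream of 7 and in 6.02%. Among the 13 fallen members with a window, AAGGTCA was present in 1, the nuclear respiratory factor 1 site in 1, CCGGAAG in 3 (Slc25a3, Slc25a4 and Slc25a38) and CACGTG in 1 (Slc25a13). A gene was counted when any of its windows matched, and the 33 genes had 42 windows, so these counts and percents differ in unit. Median GC was 56.8% in those 42 windows and 52.4% in all windows. A match describes the letters only.

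After TAC, 14 of the 35 tested carriers fell, 2 rose and 19 did not pass. The falls took in the carriers of ATP, phosphate, oxoglutarate, aspartate, glutamate and coenzyme A, and the rises were those of Slc25a24, a calcium-regulated ATP-Mg/phosphate carrier, and Slc25a45. The falls were 40% and the rises 5.71% of the tested carriers, beside 17% and 18.8% of all tested genes (35.8% in either direction). The median log2 fold change was -0.23 over the carriers and 0.00 over all tested genes. In 11 of the 35 tested carriers (31.4%) every TAC library lay below every sham library, beside 11.6% of all tested genes. In none of the 35 did every TAC library lie above every sham library, beside 12.2% of all tested genes. Falls ran from a log2 fold change of -0.92 (Slc25a34) to -0.19 (Slc25a5).

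**Figure D1:**
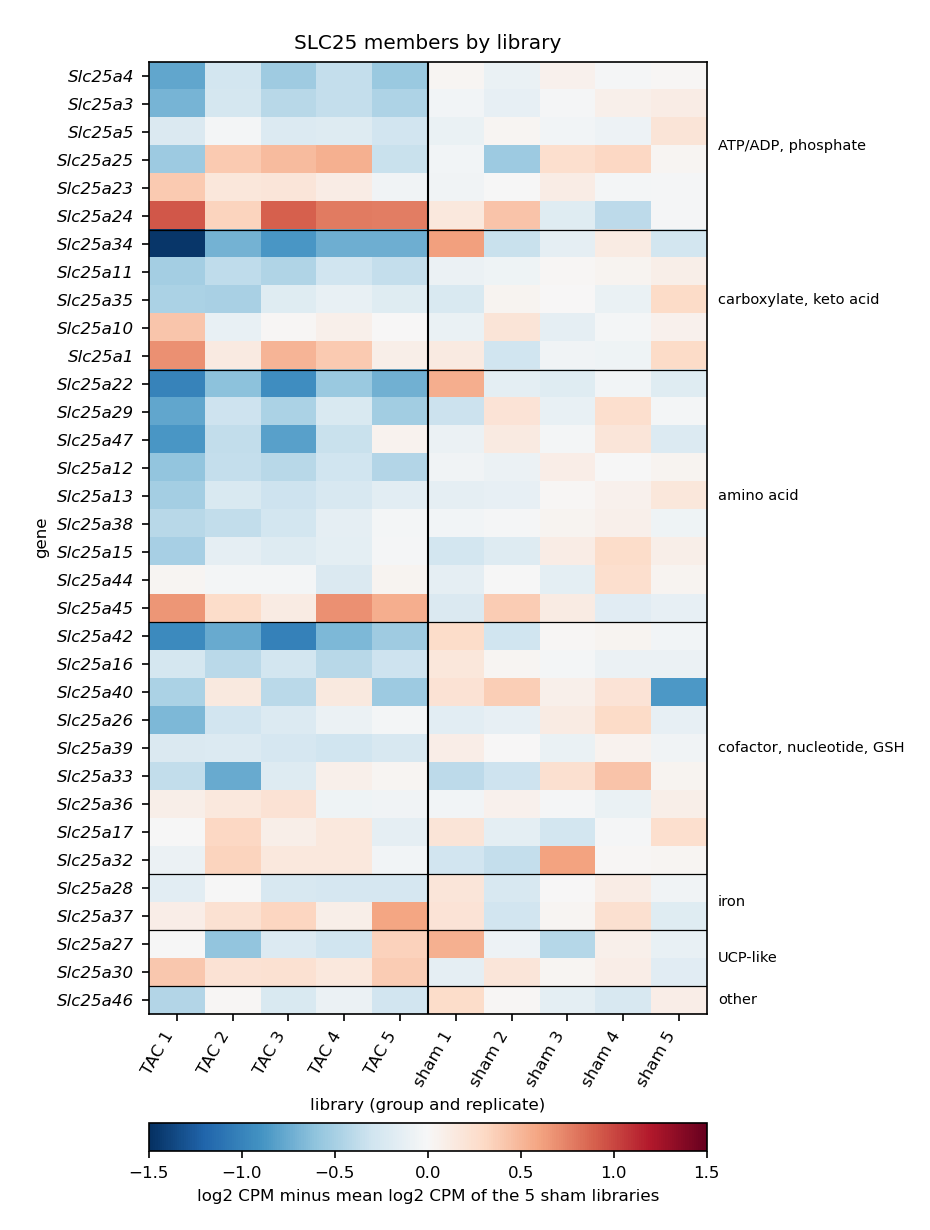
Level of 34 tested SLC25 genes (rows, grouped by substrate) in each library (columns, TAC left and sham right), as log2 CPM minus the mean log2 CPM of the 5 sham libraries; blue is lower and red is higher. TAC replicate 1 has the lowest TAC value in 16 of all 35 tested genes, and the rows of Slc25a34, Slc25a22 and Slc25a42 stand out in TAC in blue.

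Scaling moved part of this result. When CPM was scaled by library totals alone, all tested genes shifted to a median of 0.11 on the log2 scale. The carriers then had a median of -0.13, with 10 falls and 6 rises, beside 9.66% of all tested genes that fell and 27.1% that rose (36.8% in either direction). Falls of Slc25a5, Slc25a13, Slc25a38 and Slc25a39 then no longer passed (adjusted p = 0.345, 0.0664, 0.255 and 0.0586 by edgeR), and Slc25a1, Slc25a23, Slc25a30 and Slc25a37 rose. Without TAC replicate 1, 12 carriers fell and 1 rose, beside 15.1% and 16.7% of all tested genes (31.8% in either direction). Without sham replicate 1, 14 fell and 1 rose, beside 16.1% and 17% (33% in either direction), and with both left out 13 fell and 2 rose, beside 14.6% and 16.3% (30.9% in either direction). With no filter on low counts 42 carriers were tested, of which 13 fell and 3 rose, beside 11.7% and 13.5% of the 16647 genes then tested (25.2% in either direction).

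Most of the abundant carriers fell, and most of the weakly expressed ones did not pass. Levels of different genes are compared as CPM per kilobase of exon. Slc25a4 was by far the highest, at 1703 in TAC and 2398 in sham, and the order went on with Slc25a11 (169.8 in TAC, 224 in sham), Slc25a5 (162.5 in TAC, 185 in sham), Slc25a3 (95.97 in TAC, 129.5 in sham), Slc25a34 (70.1 in TAC, 133 in sham) and Slc25a39 (64.1 in TAC, 75.8 in sham). Of the 11 carriers with a mean of at least 10 CPM per kilobase, 10 fell and 1, Slc25a23, did not pass (median log2 fold change -0.42), where 33.1% of the 3392 tested genes at such levels fell and 16.7% rose (median -0.08). Of the 24 tested carriers below that level, 4 fell, 2 rose and 18 did not pass (median -0.17), where 10.5% of the 8493 such genes fell and 19.7% rose. Precision is lower for weakly expressed genes, which have fewer counts.

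Carriers of adenine nucleotides and phosphate split by member: of 8 genes, 6 were tested, 3 fell (Slc25a4, Slc25a3 and Slc25a5), 1 rose (Slc25a24) and 2 did not pass. Falls were 50% of the 6, beside 40% of all tested carriers and 17% of all tested genes, of which 18.8% rose. Slc25a4 (ENSMUSG00000031633, chromosome 8), the ATP/ADP carrier of heart and skeletal muscle, gave 3275, 4641, 3910, 4384 and 3827 CPM in TAC libraries 1 to 5, against 5769, 5255, 5911, 5548 and 5726 CPM in sham libraries 1 to 5. The groups did not overlap, and TAC replicate 1 was the lowest library. The means were 4008 ± 529 CPM in TAC and 5642 ± 252.1 CPM in sham (log2 fold change -0.49 ± 0.09 with an edgeR adjusted p = 0.000922), and without TAC replicate 1 the log2 fold change was -0.43. This single gene held 62.1% of the summed level of the 43 genes on average in TAC and 64.1% in sham. The summed level of the 43 genes was 6440 ± 679 CPM in TAC and 8806 ± 366 CPM in sham, and without Slc25a4 it was 2433 ± 154 and 3164 ± 155 CPM.

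Slc25a3 (ENSMUSG00000061904, chromosome 10), the phosphate carrier, which also brings copper into the matrix, gave 441, 599.6, 539, 560.4 and 523 CPM in TAC libraries 1 to 5, against 699, 658, 707, 757 and 773 CPM in sham libraries 1 to 5. All TAC libraries again lay below all sham libraries (533 ± 58.6 CPM in TAC and 719 ± 46.3 CPM in sham; log2 fold change -0.43 ± 0.08 with an edgeR adjusted p = 0.00105). Slc25a5 (chromosome X), the ATP/ADP carrier of most other tissues, gave 262, 298, 264, 266 and 248 CPM in TAC libraries 1 to 5, against 284, 308, 294, 288 and 346 CPM in sham libraries 1 to 5. Here the groups overlapped, since TAC replicate 2 lay above 3 sham libraries, and the fall was small (log2 fold change -0.19 ± 0.07 with an edgeR adjusted p = 0.045). That call was lost in 7 of the 10 fits without 1 library. Slc25a4 and Slc25a5 have closely alike coding sequences, so some reads may be shared and both values are uncertain to that extent. Slc25a31, the testis form, had 0 to 3 counts per library and was not tested.

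The ATP-Mg/phosphate carriers, which change the total adenine nucleotide content of the matrix, were 2 genes that did not pass and 1 that rose. Slc25a24 (chromosome 3) gave 9.48, 6.25, 9.28, 8.56 and 8.45 CPM in TAC libraries 1 to 5, against 5.55, 6.71, 4.39, 3.77 and 4.92 CPM in sham libraries 1 to 5. TAC replicate 2 lay below sham replicate 2, and the other 4 TAC libraries lay above all sham libraries (8.404 ± 1.28 CPM in TAC and 5.07 ± 1.13 CPM in sham; log2 fold change 0.73 ± 0.16 with an edgeR adjusted p = 0.00378). The rise passed in each of the 18 alternatives tried. Slc25a23 (chromosome 17) gave 129.6, 111, 112, 107 and 95.2 CPM in TAC libraries 1 to 5, against 95.3, 98.5, 107, 96.7 and 97.3 CPM in sham libraries 1 to 5. Its groups overlapped and it did not pass (log2 fold change 0.17 ± 0.07 with an edgeR adjusted p = 0.0918). Slc25a25 (chromosome 2) gave 19.9, 38.05, 40.4, 42.2 and 23.2 CPM in TAC libraries 1 to 5, against 28.3, 19.9, 34.6, 36.1 and 29.6 CPM in sham libraries 1 to 5. Both groups spread widely, with the lowest values in TAC replicates 1 and 5 and sham replicate 2 (log2 fold change 0.14 ± 0.21 with an edgeR adjusted p = 0.646). Slc25a41 had a single count in each of 2 libraries and was not tested.

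**Figure D2:**
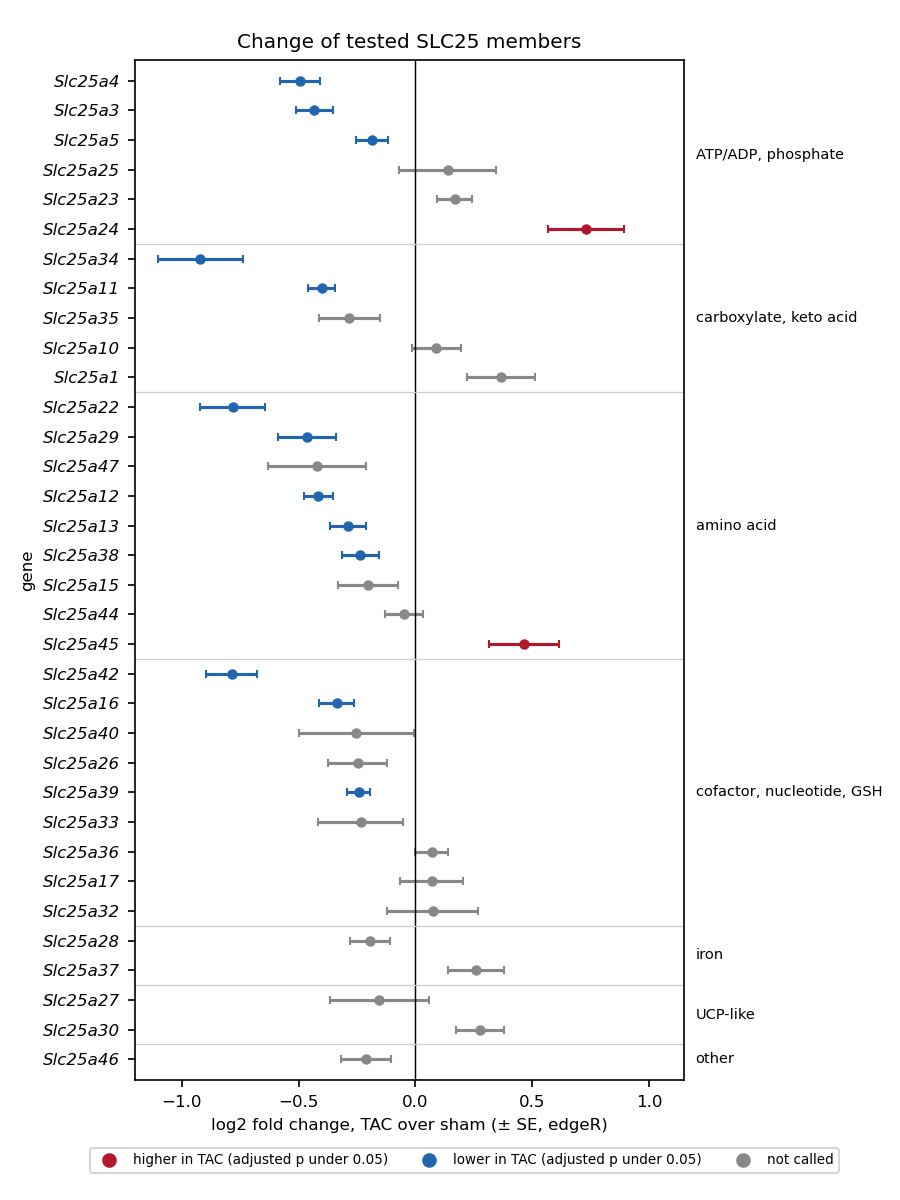
Log2 fold change TAC over sham (points, with SE as bars) of 34 tested SLC25 genes, grouped by substrate. The 13 called falls shown lie between -0.92 and -0.19 and the 2 called rises, Slc25a45 and Slc25a24, at 0.46 and 0.73.

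Among the 35 tested Slc25a genes, the largest fall was in the group listed as carriers of carboxylates and keto acids. Of 6 genes, 5 were tested, 2 fell (Slc25a34 and Slc25a11), none rose and 3 were not called. That share of falls, 40%, was the same as over all tested carriers, while 17% of all tested genes fell and 18.8% rose. Slc25a34 (ENSMUSG00000040740, chromosome 4), a heart- and muscle-rich carrier whose substrate is not settled, gave 124, 209.7, 188, 207 and 208 CPM in TAC libraries 1 to 5, against 526, 273, 314, 374 and 283 CPM in sham libraries 1 to 5. The groups did not overlap, but sham replicate 1 was well above and TAC replicate 1 well below the rest of its group. The means were 187 ± 36.2 CPM in TAC and 354 ± 104 CPM in sham (log2 fold change -0.92 ± 0.18 with an edgeR adjusted p = 0.00186). The log2 fold change was -0.80 without TAC replicate 1, -0.73 without sham replicate 1 and -0.62 without both (adjusted p = 0.000278 by edgeR).

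Slc25a11 (ENSMUSG00000014606, chromosome 11), the oxoglutarate/malate carrier, gave 332, 363, 346, 386 and 372 CPM in TAC libraries 1 to 5, against 448, 453, 482, 489.7 and 504 CPM in sham libraries 1 to 5. The spread within groups was small and the groups lay apart (360.0 ± 21.2 CPM in TAC and 475 ± 23.9 CPM in sham; log2 fold change -0.40 ± 0.06 with an edgeR adjusted p = 0.000237). Of its exonic bases, 8.92% are shared with the opposite-strand gene Rnf167, whose reads these unstranded libraries cannot set apart. Slc25a10 (chromosome 11), the dicarboxylate carrier, gave 22.6, 15.8, 17.2, 17.9 and 17.1 CPM in TAC libraries 1 to 5, against 15.8, 19.5, 15.5, 16.7 and 17.7 CPM in sham libraries 1 to 5. The groups overlapped, with TAC replicate 1 the highest library (log2 fold change 0.09 ± 0.10 with an edgeR adjusted p = 0.532), and the log2 fold change was -0.0017 without it. Slc25a1, the citrate carrier that exports citrate for fatty acid synthesis, had 8.59 ± 1.52 CPM in TAC and 6.64 ± 1.01 CPM in sham (log2 fold change 0.37 ± 0.15 with an edgeR adjusted p = 0.0666) and did not pass. Slc25a35 did not pass (log2 fold change -0.28 ± 0.13 with an edgeR adjusted p = 0.111) and shares 31.3% of its exonic bases with Rangrf, and Slc25a21, an oxodicarboxylate carrier, had 0 to 2 counts per library.

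Among the amino acid carriers, both aspartate-glutamate carriers and the expressed glutamate carrier fell. Of 12 genes, 9 were tested, 5 fell (Slc25a22, Slc25a29, Slc25a12, Slc25a13 and Slc25a38), 1 rose (Slc25a45) and 3 did not pass. Falls were 55.6% of the 9, beside 40% of all tested carriers and 17% of all tested genes, of which 18.8% rose. Slc25a12 (ENSMUSG00000027010, chromosome 2), known as aralar, the aspartate-glutamate carrier of heart, muscle and brain, gave 173, 205, 197, 213 and 194 CPM in TAC libraries 1 to 5, against 253, 246, 281, 260.0 and 270.4 CPM in sham libraries 1 to 5. Each TAC library lay below each sham library (196 ± 14.9 CPM in TAC and 262 ± 13.7 CPM in sham; log2 fold change -0.42 ± 0.06 with an edgeR adjusted p = 0.000314). Slc25a13 (chromosome 6), known as citrin, the form that predominates in liver, gave 90.96, 109.9, 104, 109 and 116 CPM in TAC libraries 1 to 5, against 118, 118, 131, 135 and 146 CPM in sham libraries 1 to 5. Its groups also lay apart, though by less (log2 fold change -0.29 ± 0.08 with an edgeR adjusted p = 0.0106).

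Slc25a22 (ENSMUSG00000019082, chromosome 7), a glutamate/proton carrier, gave 50.9, 66.5, 53.4, 69.2 and 61.7 CPM in TAC libraries 1 to 5, against 148, 91.95, 89.8, 98.6 and 89.8 CPM in sham libraries 1 to 5. Sham replicate 1 stood far above the other 4 sham libraries, and the groups lay apart with or without it (60.3 ± 8.003 CPM in TAC and 104 ± 25.1 CPM in sham; log2 fold change -0.78 ± 0.14 with an edgeR adjusted p = 0.000967). Without sham replicate 1 the log2 fold change was -0.62 (adjusted p = 0.000418 by edgeR). The other glutamate carrier, Slc25a18, had only 3 to 8 counts per library and was not tested. Slc25a29 (chromosome 12), a carrier of basic amino acids, gave 13.5, 18.8, 16.8, 19.8 and 16.2 CPM in TAC libraries 1 to 5, against 18.7, 26.7, 21.6, 27.8 and 22.8 CPM in sham libraries 1 to 5. TAC replicates 2 and 4 reached above the lowest sham library (log2 fold change -0.46 ± 0.12 with an edgeR adjusted p = 0.0104).

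Slc25a38, which brings in glycine for haem synthesis, had 18.2 ± 2.03 CPM in TAC and 21.5 ± 0.866 CPM in sham (log2 fold change -0.23 ± 0.08 with an edgeR adjusted p = 0.0364), a call lost in 6 of the 10 fits without 1 library. Slc25a45 (chromosome 19) gave 11.2, 8.56, 7.71, 11.4 and 10.3 CPM in TAC libraries 1 to 5, against 6.08, 9.27, 7.75, 6.29 and 6.52 CPM in sham libraries 1 to 5. TAC replicates 2 and 3 lay within the sham range (log2 fold change 0.46 ± 0.15 with an edgeR adjusted p = 0.0277), and this call too was lost in 6 of those fits, those without TAC replicate 1 and without sham replicate 1 among them (adjusted p = 0.0584 and 0.066 by edgeR). Slc25a15, an ornithine carrier, Slc25a44, a carrier of branched-chain amino acids, and Slc25a47 did not pass, with log2 fold changes of -0.20, -0.05 and -0.42. Slc25a48 had no more than 1 count in any library, and Slc25a2, an ornithine carrier, had 0 counts in all 10, which allows at most 0.407 CPM in a single library (3 counts).

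**Figure D3:**
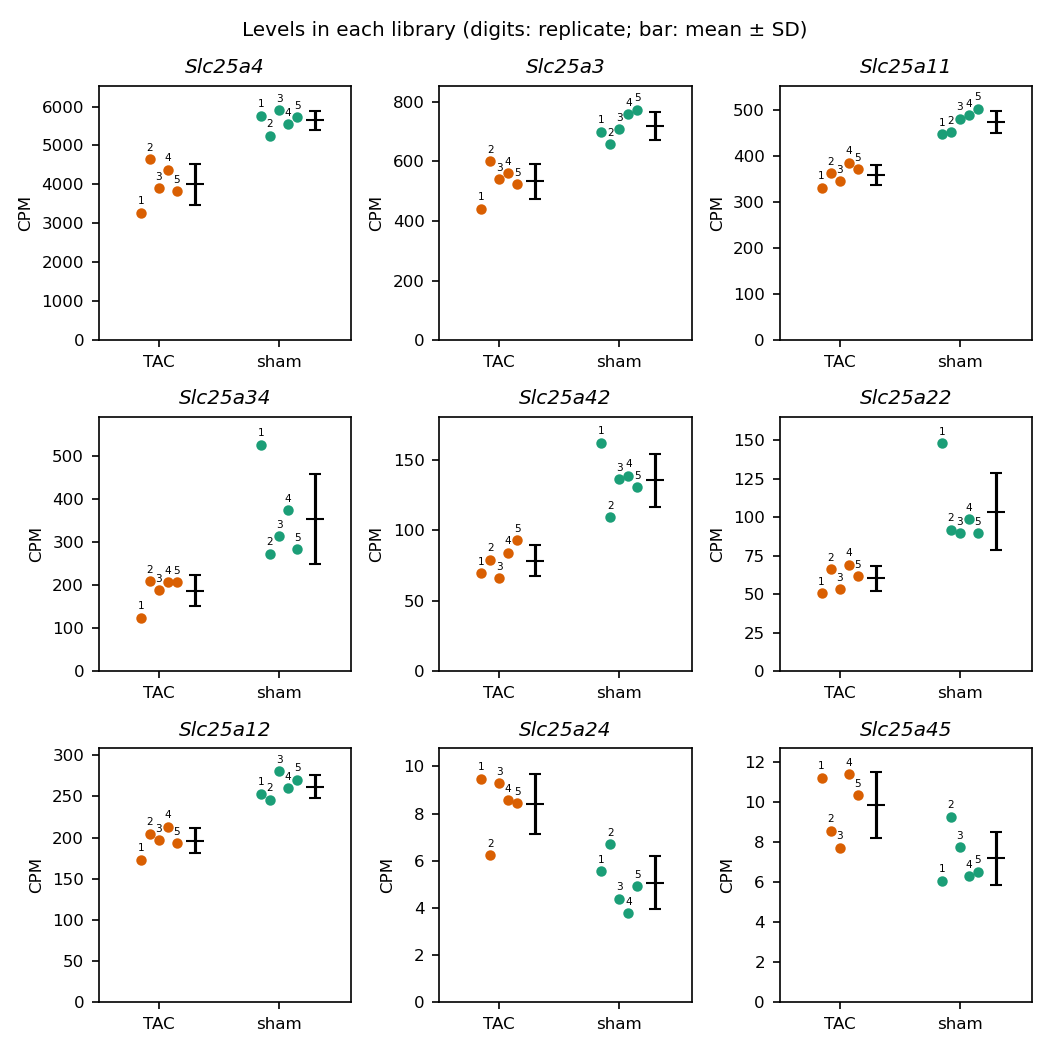
CPM of 9 SLC25 genes in each library, with TAC on the left and sham on the right of each panel, the replicate number above each point and the mean ± SD as a bar. All TAC points lie below all sham points for Slc25a4, Slc25a3, Slc25a11, Slc25a34, Slc25a42, Slc25a22 and Slc25a12, and the groups overlap for Slc25a24 and Slc25a45.

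Carriers of cofactors, nucleotides and glutathione were all tested: of 10 genes, 4 fell (Slc25a42, Slc25a16 and Slc25a39 among them), none rose and 6 did not pass. That share of falls, 40%, was the same as over all tested carriers, while 17% of all tested genes fell and 18.8% rose. Slc25a42 (ENSMUSG00000002346, chromosome 8), which exchanges coenzyme A for adenine nucleotides, gave 69.5, 79.2, 66.2, 84.1 and 92.8 CPM in TAC libraries 1 to 5, against 162, 109, 136, 138 and 130.3 CPM in sham libraries 1 to 5. The highest TAC library stayed below the lowest sham library (78.3 ± 10.8 CPM in TAC and 135 ± 18.9 CPM in sham; log2 fold change -0.79 ± 0.11 with an edgeR adjusted p = 0.000179). This was the smallest adjusted p of the family, and the log2 fold change was -0.67 without TAC replicate 1 and sham replicate 1. Slc25a16 had 15.4 ± 0.767 CPM in TAC and 19.4 ± 1.45 CPM in sham (log2 fold change -0.34 ± 0.07 with an edgeR adjusted p = 0.00389).

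Slc25a39 (chromosome 11), which brings glutathione into the matrix, gave 180.3, 181, 175, 170.3 and 177 CPM in TAC libraries 1 to 5, against 223, 209, 195, 217 and 201 CPM in sham libraries 1 to 5. The TAC libraries lay within 10.6 CPM of each other and all below sham (log2 fold change -0.24 ± 0.05 with an edgeR adjusted p = 0.00266). Its relative Slc25a40 was near the limit of the test, with 1.503, 2.31, 1.57, 2.297 and 1.43 CPM in TAC libraries 1 to 5, against 2.41, 2.68, 2.196, 2.402 and 1.14 CPM in sham libraries 1 to 5. That gene did not pass (log2 fold change -0.25 ± 0.25 with an edgeR adjusted p = 0.458). Of the pyrimidine nucleotide carriers, Slc25a33 gave 9.59, 7.34, 10.8, 13.1 and 12.6 CPM in TAC libraries 1 to 5, against 9.43, 9.999, 14.6, 16.7 and 12.7 CPM in sham libraries 1 to 5. Its groups overlapped (log2 fold change -0.23 ± 0.18 with an edgeR adjusted p = 0.341), and 14.9% of its exonic bases are shared with the opposite-strand gene Gm13068. Slc25a36 gave 26.9, 28.3, 29.4, 24.3 and 24.5 CPM in TAC libraries 1 to 5, against 24.6, 26.6, 25.1, 23.7 and 27.01 CPM in sham libraries 1 to 5. It too overlapped between groups (log2 fold change 0.07 ± 0.07 with an edgeR adjusted p = 0.484). Slc25a26, the S-adenosylmethionine carrier, Slc25a32, the folate or FAD carrier, and the peroxisomal Slc25a17 had log2 fold changes of -0.25, 0.07 and 0.07 and did not pass.

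Neither iron carrier passed alone. Slc25a37 (chromosome 14), mitoferrin 1, the form of developing red cells, gave 25.4, 27.9, 29.8, 25.4 and 35.8 CPM in TAC libraries 1 to 5, against 27.4, 19.5, 24.4, 28.1 and 20.9 CPM in sham libraries 1 to 5. TAC replicate 5 was the highest of all libraries, and the groups overlapped (log2 fold change 0.26 ± 0.12 with an edgeR adjusted p = 0.111). Slc25a28 (chromosome 19), mitoferrin 2, gave 22.2, 24.7, 20.97, 20.9 and 20.9 CPM in TAC libraries 1 to 5, against 28.2, 20.97, 24.9, 26.8 and 24.03 CPM in sham libraries 1 to 5. The groups overlapped here as well (log2 fold change -0.19 ± 0.09 with an edgeR adjusted p = 0.096). The erythroid markers Alas2, Hba-a1 and Hbb-b1 had log2 fold changes of 0.59, 0.41 and 0.50 and did not pass (summed level 593 to 1230 CPM in TAC and 159 to 957 CPM in sham), and their part in the Slc25a37 level was not tested. Among members akin to uncoupling proteins, Slc25a30 had 10.5 ± 0.792 CPM in TAC and 8.67 ± 0.895 CPM in sham and lay at the threshold (log2 fold change 0.28 ± 0.10 with an edgeR adjusted p = 0.05002), Slc25a27 did not pass (log2 fold change -0.15 ± 0.21 with an edgeR adjusted p = 0.61) and Slc25a14 had 5 to 12 counts per library. Slc25a46, a carrier-like protein of the outer membrane that acts in mitochondrial dynamics, did not pass (log2 fold change -0.21 ± 0.11 with an edgeR adjusted p = 0.141). Slc25a43 was too low to pass the filter, with 27 counts over the 5 TAC libraries and 11 over the 5 sham libraries, and was the 1 such member whose groups did not overlap. With no filter it was called higher (log2 fold change 1.25 ± 0.41 with an edgeR adjusted p = 0.0373), a fitted value that rests on few counts, and none of the other 6 low members with counts was called in that fit.

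The balance within related carriers was compared as the log2 ratio of a pair inside each library, in which library scaling cancels apart from the prior count. Of 9 pairs, 8 were tested, all but Slc25a22/Slc25a18, by exact two-sided permutation tests, adjusted over the 8. The tests take every way of splitting the 10 libraries into 5 and 5 (smallest p possible 0.00794). The pairs were chosen with earlier results of these data known, and the adjustment does not cover that choice. The ratio Slc25a4/Slc25a5, heart form to general form, was 3.90 ± 0.15 in TAC and 4.21 ± 0.14 in sham (difference -0.32, exact permutation test, two-sided p = 0.00794, adjusted p = 0.0212). Every TAC library lay below every sham library, with 0.0053 between TAC replicate 4 and sham replicate 5. The ratio Slc25a37/Slc25a28, mitoferrin 1 to mitoferrin 2, was 0.38 ± 0.25 in TAC and -0.06 ± 0.10 in sham (difference 0.44, exact permutation test, two-sided p = 0.00794, adjusted p = 0.0212), with TAC values of 0.17 to 0.77 all above the sham values of -0.20 to 0.07. The ratio Slc25a10/Slc25a11 was -4.30 ± 0.26 in TAC and -4.79 ± 0.16 in sham (difference 0.48, exact permutation test, two-sided p = 0.00794, adjusted p = 0.0212), with TAC replicate 1 the highest at -3.86 and the groups apart by 0.014.

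The ratio Slc25a23/Slc25a24 was 3.70 ± 0.25 in TAC and 4.25 ± 0.32 in sham (difference -0.55, exact permutation test, two-sided p = 0.0238, adjusted p = 0.0476), and this call was lost in 8 of the 10 fits without 1 library. Slc25a12/Slc25a13, aralar to citrin, was 0.89 ± 0.09 in TAC and 1.02 ± 0.10 in sham (difference -0.13, exact permutation test, two-sided p = 0.0794, adjusted p = 0.127) and did not pass. The remaining 3, Slc25a23/Slc25a25, Slc25a33/Slc25a36 and Slc25a39/Slc25a40, had differences of 0.06, -0.31 and -0.04 with adjusted p of 0.897, 0.360 and 0.897 (exact permutation tests). Without TAC replicate 1, the differences of Slc25a4/Slc25a5, Slc25a37/Slc25a28 and Slc25a10/Slc25a11 were -0.26, 0.49 and 0.37 and none passed after adjustment (adjusted p = 0.0847, 0.0635 and 0.0635, exact permutation tests on 9 libraries).

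**Figure D4:**
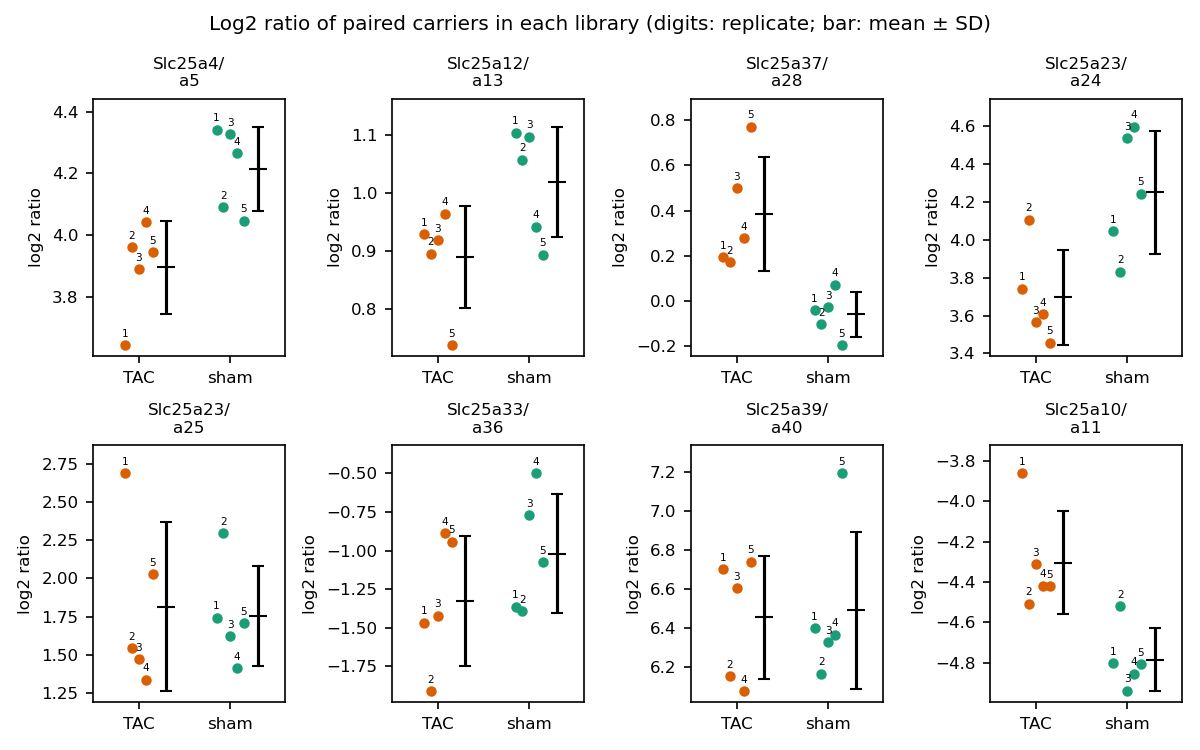
Log2 ratio of CPM between the 2 genes of each tested pair in each library, TAC left and sham right, with the replicate number above each point and mean ± SD as a bar. Groups do not overlap for Slc25a4/Slc25a5, Slc25a37/Slc25a28 and Slc25a10/Slc25a11.

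Relatives of the family listed under other symbols moved in both directions: of 8 genes, 5 were tested, 2 rose (Ucp2 and Mtch1), 2 fell (Ucp3 and Slc25a51) and 1, Mtch2, did not pass. Falls were 40% of the 5, the same as over all tested carriers, while 17% of all tested genes fell and 18.8% rose. Ucp3, the uncoupling protein of skeletal muscle and heart, gave 5.32, 20.9, 15.2, 16.5 and 16.1 CPM in TAC libraries 1 to 5, against 119.8, 15.97, 33.1, 48.8 and 35.9 CPM in sham libraries 1 to 5. Sham replicate 1 was more than all TAC libraries summed, and TAC replicate 2 lay above sham replicate 2 (14.8 ± 5.75 CPM in TAC and 50.7 ± 40.4 CPM in sham; log2 fold change -1.79 ± 0.46 with an edgeR adjusted p = 0.00867). Without sham replicate 1 the log2 fold change of Ucp3 was -1.19 (adjusted p = 0.0134 by edgeR), and without TAC replicate 1 as well it was -0.97. Sham replicate 1 was also the highest of all 10 libraries for Slc25a34, Slc25a42 and Slc25a22 above. Ucp2, the form found in many cell types including immune cells, gave 248, 297, 283, 226 and 215 CPM in TAC libraries 1 to 5, against 239.9, 140.0, 164, 170.4 and 194 CPM in sham libraries 1 to 5. Sham replicate 1 lay within the TAC range (log2 fold change 0.48 ± 0.13 with an edgeR adjusted p = 0.0119). Macrophage markers also rose in TAC as a group, and their part in the Ucp2 level was not tested. Among TAC libraries Ucp2 was highest in replicate 2, while the listed macrophage markers other than Cd163 were highest in replicate 1. Slc25a51, the NAD carrier, listed as Mcart1, fell by little (log2 fold change -0.15 ± 0.05 with an edgeR adjusted p = 0.0209), and Mtch1, an outer membrane relative, rose by little (log2 fold change 0.15 ± 0.05 with an edgeR adjusted p = 0.0241). The Mtch1 call was lost without sham replicate 1, 4 or 5 or TAC replicate 2 or 3. It was also lost without both first replicates and with replicate number as a block. The Slc25a51 call was lost without TAC replicate 3 or sham replicate 4 and with library totals.

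Other transport genes of mitochondria were set beside the carriers, from lists of named genes. Their counts stand beside the 17% of all tested genes that fell and the 18.8% that rose. All 3 outer membrane channels fell, Vdac1, Vdac2 and Vdac3, with log2 fold changes of -0.40, -0.21 and -0.44. Of 14 tested inner membrane carriers of other families, 7 fell and 7 were not called, with none rising and a median of -0.28. Those that fell include Mpc1 and Mpc2, the pyruvate carrier subunits (-0.32 and -0.32), Mcur1, a regulator of calcium uptake (-0.34), and Sfxn4, a sideroflexin (-0.94). Of 7 shuttle enzymes, 6 fell and Gpd2 did not pass (median -0.36). Among them, Mdh1 and Got1, the cytosolic malate dehydrogenase and aspartate aminotransferase, had log2 fold changes of -0.52 and -0.62, while Got2, the mitochondrial aminotransferase, and Gpd1l, a glycerol-3-phosphate dehydrogenase-like protein, had -0.36 and -0.34. Of 4 inner membrane ABC transporters, 3 fell and 1 did not pass (median -0.26).

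The machinery that imports carrier proteins, outer membrane subunits included, had 13 genes on the list. Of these, 2 fell (Timm8b and Agk), 11 were not called and none rose, with a median of -0.12. That share of falls, 15.4%, is close to the 17% over all tested genes. Timm8b, a small chaperone of the intermembrane space, had 35.6 ± 2.65 CPM in TAC and 42.9 ± 0.991 CPM in sham (log2 fold change -0.27 ± 0.06 with an edgeR adjusted p = 0.00393), and Agk, a kinase that is also part of the carrier translocase, had 10.7 ± 1.098 CPM in TAC and 13.4 ± 1.58 CPM in sham (log2 fold change -0.34 ± 0.11 with an edgeR adjusted p = 0.0264). Timm22, the channel of that translocase, and Timm13, another small chaperone of the intermembrane space, had log2 fold changes of -0.18 and -0.10 and were not called.

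**Figure D5:**
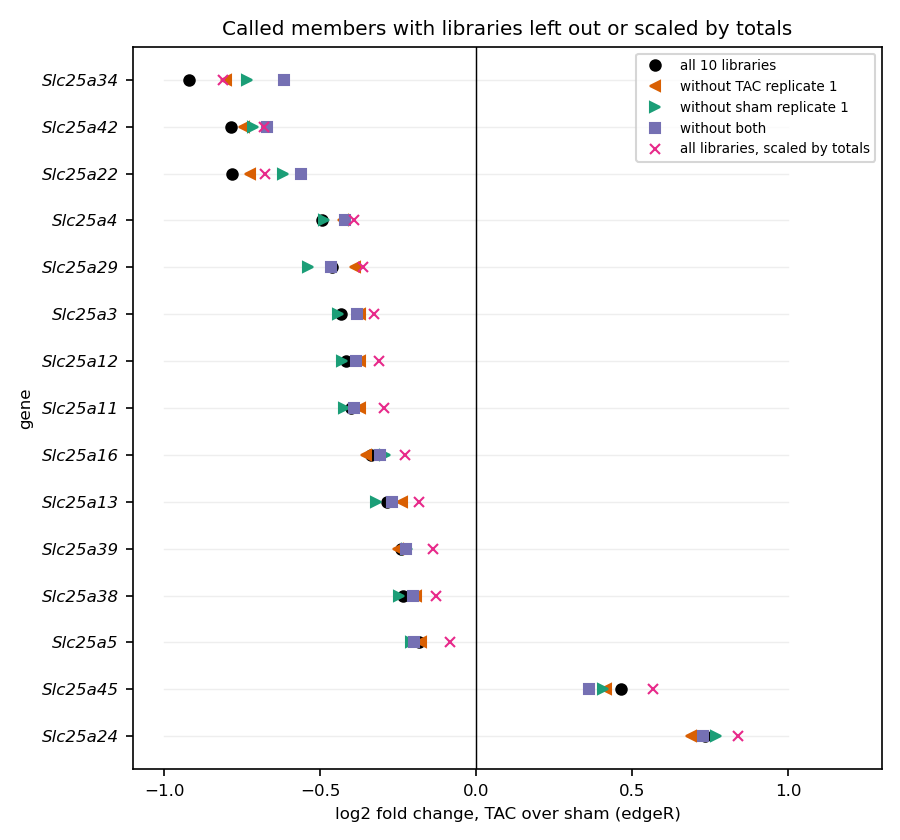
Log2 fold change TAC over sham of 15 called SLC25 genes with all libraries (black), without TAC replicate 1, without sham replicate 1, without both, and with library totals as the scale. Signs stay the same throughout, and Slc25a34 moves most, from -0.92 with all libraries to -0.62 without both.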

How the data were processed

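The values used are raw read counts per Ensembl gene, whole numbers that the authors deposited in 1 table for all 10 libraries. Per the submitters' processing notes, sham libraries went with TopHat2 2.0.10, Bowtie2 and the mm10 build, and TAC libraries with TopHat 1.3.0, Bowtie and both mm9 and mm10, with HTSeq in either case. Per the file headers the gene IDs follow GRCm37 (mm9). Stated alignment and group therefore cannot be told apart. Libraries do not keep the strand, per the labels' protocols. The word sham is missing from the titles of those 5 libraries, which were grouped from the series design text, where samples are mice. A row of column totals was left out. No libraries of a group were alike enough to be a repeat (chi-square per gene from 2.66 to 25.1 over 20 pairs).

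Counts were tested with edgeR 4.0.16 (R 4.3.3, limma 3.58.1) by quasi-likelihood, using TMM, filterByExpr (minimum count 10, minimum total 15) and no covariate, with Benjamini-Hochberg adjustment across every tested gene. SE is the log2 fold change divided by the square root of F. Ratios used log2 CPM with a prior count of 2. Exon lengths, overlaps and chromosomes come from GENCODE M21 (GRCm38), which held all 43 genes. The procedure was tested on simulated data. Members, lists, motifs and pairs were chosen with earlier results of these data known. Values in every library are given for the 6 most abundant members per kilobase, up to 8 called members with the largest fall and up to 8 with the largest rise, and both genes of each pair. From other lists up to 4 genes by adjusted p are named, and any further gene was named after its values were seen. Of 16 inner membrane carriers of other families, 15 were matched by symbol. Single results of a few listed genes are not reported here, though those genes stay in the counts. Alternatives were DESeq2 1.42.0, its size factors, library totals, no filter, limma-voom, robust dispersions, a replicate block and leaving out libraries.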

Additional observations from a re-analysis of the deposited data

Results flagged for a closer look

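Of 70 groups of 5 values looked at, 2 for each tested carrier, 3 held a library whose gap to its nearest neighbour exceeded 0.71 of the group's range, where chance flags about 1 in 20. Slc25a34 in TAC had 124.5 CPM in TAC replicate 1, against 188 to 209.7 CPM in the other 4 TAC libraries. Slc25a22 in sham had 148.0 CPM in sham replicate 1, against 89.8 to 98.6 CPM in the other 4 sham libraries. Slc25a23 in sham had 106.9 CPM in sham replicate 3, against 95.3 to 98.5 CPM in the others. No explanation of these values was tested.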

How the results depend on the processing

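Of the 16 called carriers, 11 were called in the same direction under all 18 alternatives, among them Slc25a3, Slc25a4, Slc25a11, Slc25a12, Slc25a16, Slc25a22, Slc25a24, Slc25a29, Slc25a34 and Slc25a42. The other 5 lost the call in at least 1: Slc25a5 in 10 (library totals, no filter, the replicate block, and without TAC replicate 1, 3, 4 or 5 or sham replicate 2, 3 or 5), Slc25a38 in 9 (library totals, DESeq2, without TAC replicate 1, 2 or 3, sham replicate 2, 3 or 4, or both first replicates), Slc25a45 in 8 (the replicate block, without TAC replicate 1, 4 or 5, sham replicate 1, 4 or 5, or both first replicates), and Slc25a13 and Slc25a39 with library totals. Of the 19 not called, 5 were called in at least 1 alternative: Slc25a1, Slc25a23, Slc25a28, Slc25a30 and Slc25a37. Slc25a43, too low for the main test, was called higher with no filter, the third rise of that fit. No called value changed sign.

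With library totals only, 6 carriers rose and 10 fell, beside 27.1% of all tested genes that rose and 9.66% that fell. Of the inner membrane carriers of other families 2 rose and 6 fell, and of the relatives under other symbols 2 rose and 1 fell. In the other lists none rose, and 2 outer membrane channels, 6 shuttle enzymes, 1 import gene and 1 ABC transporter fell. Leaving out 1 library, 1 to 3 carriers rose and 12 to 14 fell, and 1 to 2 relatives rose and 1 to 3 fell. Of other inner membrane carriers 0 to 1 rose and 6 to 7 fell, and 1 to 3 import genes fell. Shares over all tested genes were taken only without TAC replicate 1 (16.7% rose, 15.1% fell) and without sham replicate 1 (17% rose, 16.1% fell). The counts of the other fits that leave out 1 library have no such share beside them. Leaving out both first replicates, chosen after seeing the data, 2 carriers rose and 13 fell, beside 16.3% and 14.6% of all tested genes. In that fit 1 relative rose and 2 fell, 6 other inner membrane carriers fell and 1 import gene fell.

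Same-numbered libraries did not deviate together, with correlations of 0.00, -0.04, 0.06, 0.22 and -0.09 for numbers 1 to 5, and TAC libraries 3 and 4 alone matched their own sham number best. With replicate number as a block, 1 carrier and 1 relative rose, the Mtch1 call being lost, and 13 carriers fell. The share of all tested genes called was not taken for the block fit. Exchanging labels within pairs, a test on 5 pairs that cannot fall below an unadjusted p of 0.0625, left no ratio past the threshold: the differences were -0.32 for Slc25a4/Slc25a5, 0.44 for Slc25a37/Slc25a28, -0.55 for Slc25a23/Slc25a24 and 0.48 for Slc25a10/Slc25a11 (adjusted p 0.167 to 0.2, exact). Without both first replicates these were -0.22, 0.49, -0.62 and 0.37, none past the threshold (adjusted p 0.0762 to 0.114, exact permutation tests). With both left out fewer splits exist, so the smallest possible p is larger than with all libraries, and not passing says little here. Leaving out 1 library gave ranges of -0.36 to -0.26, 0.35 to 0.50, -0.66 to -0.47 and 0.37 to 0.55, and for Slc25a12/Slc25a13 of -0.162 to -0.0928, which passed only without sham replicate 5 (adjusted p = 0.0476, exact). The cause of these changes was not tested. Depth limits what can be seen for the 8 carriers that were not tested.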
